A study of Bos taurus with 6 samples.

Results

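The loci described here are stretches of the bovine genome from which every one of 6 single morulae gave assembled RNA that carried no gene name. They were collected from the 6 deposited gene tables as entries without a gene symbol and with a valid estimate, spanning at least 1000 bases and reaching at least 1 FPKM, a level in fragments per kilobase of transcript that is scaled to the sequencing depth. Such assembled entries, 54404 in all, were pooled and merged wherever they overlapped on a chromosome. The merging gave 18068 loci, of which 2482 (13.7%) held an entry from each of the 6 embryos. These 2482 shared loci were selected on the span of their entries, level and presence in all libraries, so these measures are given as description only.

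Each library was made from the polyA RNA of 1 bovine morula, an embryo produced by in vitro fertilization and cultured in mSOF medium with bovine serum albumin under 5% oxygen. All embryos were divided between the groups at day 3 (72 hours post insemination), when they had 8 to 16 cells, and were collected at day 6 (144 hours). Control embryos (n = 3) received 0.1% DMSO, the vehicle, and MAT2A-inhibited embryos (n = 3) received 20 µM FIDAS-5, an inhibitor of the enzyme that makes S-adenosylmethionine, the methyl donor for DNA, RNA and histones. The labels name no genotype or sex and do not say whether the embryos of a group shared a culture drop, and the p-values measure only how far these embryos differ from each other.

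An assembler guided by an annotation joins overlapping reads into transcripts and gives them the name of the gene they match. What it cannot match stays unnamed: long non-coding RNAs, genes that the annotation lacks, unlisted first or last exons, retained introns and stretches of repeat-derived RNA. Early embryos transcribe many such stretches after genome activation, and polyA selection keeps those that end in a tail.

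The libraries held 46500000 to 59900000 fragments, as recovered from the steps of the deposited confidence bounds. Of 8 markers of morula and pluripotent cells, 7 reached 1 FPKM in every library, among them POU5F1, the pluripotency transcription factor, at 255 to 431 FPKM. The sum of the 8 was 1578 to 1649 FPKM in controls and 1262 to 1404 FPKM in MAT2A-inhibited embryos, without overlap. Its part in the results below was not tested. The largest part of the sum was DPPA3, at 856, 661 and 881 FPKM in controls, against 527, 454 and 575 FPKM in MAT2A-inhibited embryos. NANOG was also lower without overlap. SOX2 was higher without overlap, at 27.6 to 41.5 FPKM in controls and 45.2 to 50.8 FPKM in MAT2A-inhibited embryos, and the other markers of this set overlapped. Summed markers of cumulus and other somatic cells ranged from 60.2 to 129 FPKM in controls and from 43.5 to 82.9 FPKM in MAT2A-inhibited embryos, most of it SERPINE2, a secreted protease inhibitor. Transcripts of the Y-linked genes DDX3Y, EIF1AY and OFD1Y were found only in MAT2A-inhibited embryos 2 and 3, and were listed at 0 in the other 4 libraries. USP9Y, the other Y-linked gene listed, was at 4.10 and 1.496 FPKM in these embryos and at 0.026 to 0.193 FPKM in the other 4. XIST, the long non-coding RNA of the inactive X chromosome, was at 12.8, 61.3 and 7.49 FPKM in controls, against 7.93, 0.16 and 0.13 FPKM in MAT2A-inhibited embryos.

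Most loci had a qualifying entry in 1 library only. Shorter, lower or annotated entries of the other libraries at those loci were not examined. The counts therefore do not show that the RNA was present in 1 embryo alone. Of the 18068 merged loci, 9283 (51.4%) were hit by 1 library, 2599 by 2, 1519 by 3, 1133 by 4 and 1052 by 5, and 2482 by all 6. The median length went from 1405 bases for loci hit by 1 library to 3751.5 bases for those hit by 5, and was 12262.5 bases for the shared loci. The median of the mean levels went from 1.44 FPKM to 2.98 FPKM over the same classes, and was 6.61 FPKM for the shared loci. A longer merged locus has more chances to be hit, so length and sharing are not independent measures.

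**Figure D1:**
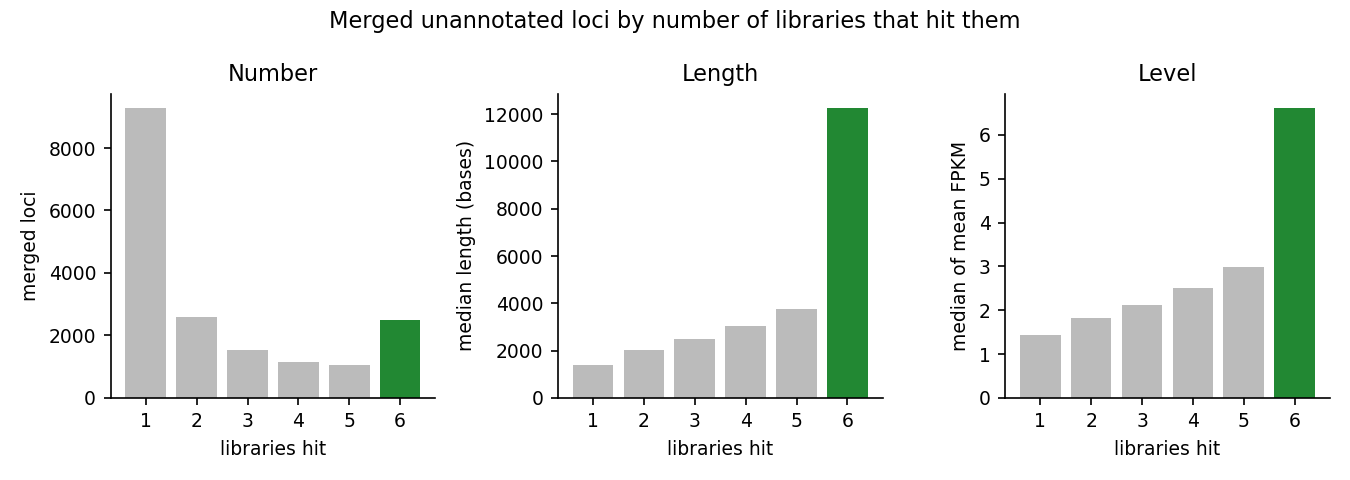
Merged unannotated loci by the number of libraries that hit them (x axis, 1 to 6). The bars give the number of loci, their median length in bases and the median of their mean level in FPKM, with the 2482 shared loci in green standing above the loci hit by 5 libraries in all 3 measures.

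Between 6129 and 8549 loci were hit per library, and the shared loci made up 29.0% to 40.5% of them. Qualifying entries numbered 8565, 8876 and 9248 in controls and 10855, 7516 and 9344 in MAT2A-inhibited embryos. The groups overlapped: MAT2A-inhibited embryos 1 and 2 held the highest and the lowest of the 6 numbers. The means were 8896 ± 342 (SD, n = 3) and 9238 ± 1672 (SD, n = 3), a difference of 342 with p = 0.7 in a two-sided exact permutation test, whose smallest possible p with 3 against 3 is 0.1.

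The edges of the rule were not sharp. The members closest to the level threshold had a lowest level of 1.003, 1.005 and 1.005 FPKM, while the nearest loci outside reached 0.999, 0.999 and 0.998 FPKM in the library that failed. At the length threshold, the members just inside rested on an entry of 1000, 1001 and 1001 bases, and those just outside on one of 999, 998 and 997 bases. Among the 1052 loci hit by 5 libraries, the missing library had an entry shorter than 1000 bases at 505 (48.0%), a long entry under 1 FPKM at 228 (21.7%), a short entry under 1 FPKM at 31 (2.95%), only an annotated entry at 139 (13.2%) and no entry at all at 149 (14.2%). The missing library was most often MAT2A-inhibited embryo 2, the shallowest library, at 267 loci and least often MAT2A-inhibited embryo 1 at 100 loci.

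The shared loci covered 104055012 bases after merging. Their lengths ran from 1027 to 725182 bases with quartiles of 3710 and 48801 bases. Loci under 5000 bases numbered 814 (32.8%) and loci of at least 100000 bases numbered 289 (11.6%). A member held a median of 7 entries over the 6 libraries and at most 152, and 1063 members (42.8%) held exactly 1 entry in each library.

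The entries of different embryos overlapped without sharing their limits. The stretch covered by all 6 libraries had a median of 2494 bases, a median of 46.5% of the merged locus, and 126 members (5.08%) had no base common to all 6. Among the 1063 members with a single entry in each library, at least 1 end agreed within 50 bases across all 6 embryos in 46.3%, and both ends did in 4.61%. With no tolerance, 1 end agreed in 0.282%.

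By the size of their entries the members fell into 3 classes. In 954 (38.4%) every library had an entry of at least 5000 bases. These had a median length of 45724 bases and a median level of 9.42 FPKM. In 864 (34.8%) no library had such an entry, and the medians were 2801 bases and 5.89 FPKM. The remaining 664 had one in some libraries only, with a median of 8.43% of the locus covered by all 6, against 63.8% and 57.1% in the other 2 classes.

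Whether an entry has introns could be read from the bounds. Without introns, the upper bound multiplied by the full span and the depth comes out as a whole number of fragments, within a tolerance of 0.05 that 10% of values meet by chance. Of the testable entries in members, 79.2% of those of 1000 to 1500 bases gave whole numbers, as did 65.2% of those of 1500 to 2500 bases and 40.5% of those of 2500 to 5000 bases. Among entries of 5000 bases or more the share was 11.8%, at about the chance level, although only 6.23% of these entries were testable. Entries of up to 2500 bases were thus mostly read as free of introns.

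Annotated entries lay close to many members. Overlap with an annotated entry of any library was found for 449 shared loci (18.1%), and for 348 (14.02%) it was found in all 6 libraries. Of the 449, 206 (8.30% of members) lay wholly within the span of an annotated entry, which for a gene with introns includes the intronic sequence. Another 567 (22.8%) lay within 5000 bases of an annotated entry, 833 (33.6%) between 5000 and 50000 bases away and 633 (25.5%) farther. The median distance of the 2033 non-overlapping members was 19081 bases.

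Many of the intervals between annotated neighbours hold genes in a newer annotation. The 2 annotated genes that flank a member could be placed on 1 chromosome of the RefSeq annotation of ARS-UCD2.0 for 1846 of the 2033 non-overlapping members. Between them lay at least 1 protein-coding gene for 1495 (81.0%). No protein-coding gene but at least 1 long non-coding gene was there for 100, and no gene of any kind for 195 (10.6%). The remaining intervals held only genes of other kinds. With an entry of 5000 bases in every library the share with a protein-coding gene was 89.8%, and with none in any library it was 65.6%, where 23.0% had no gene between the flanks. These 2 classes also differ in length, which was not adjusted for. Of 21666 protein-coding genes in RefSeq, 9366 had no entry under their symbol in the files. Intervals without a member were not examined, so these shares cannot be called particular to the members. ARS-UCD2.0 and the build of the files, bosTau8, differ in coordinates, so a gene named below as lying between a locus's flanks is a neighbour in that interval and was not matched to the locus itself.

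Levels of members and of the nearest annotated gene were weakly related. Across the 6 libraries, where both values of a point share the depth and assembly of 1 library, the median Pearson r on log2(FPKM + 1) was 0.18 over 406 members within 5000 bases of the gene and 0.02 with the gene on the other flank. It was 0.09 over all 1571 members with a tested nearest gene, and 20 of them had an r above 0.9. These are descriptions over 6 points each.

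The chromosomes carried unequal numbers. Per 100 annotated genes tested on the same chromosome there were 17.3 members on chromosome 25, the fewest, and 54.3 on chromosome 12, the most. The X chromosome held 102 members (4.11%), or 41.0 per 100 genes.

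The members were lower and more variable than annotated genes held to the same minimum. Their median level was 6.61 FPKM with quartiles of 3.80 and 13.8 FPKM, and the 5978 annotated genes at 1 FPKM or more in all 6 libraries had a median of 19.3 FPKM with quartiles of 7.20 and 66.6 FPKM. Between 20 and 100 FPKM, the median SD over the 6 libraries was 0.58 on the log2(FPKM + 1) scale for 342 members and 0.35 for 1808 annotated genes. Between 1 and 5 FPKM the values were 0.41 for 930 members and 0.37 for 945 genes. The highest library exceeded the lowest more than 10-fold at 112 members (4.51%) and at 2.22% of the annotated genes, and less than 2-fold at 456 members (18.4%) and 42.3% of the genes.

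**Figure D2:**
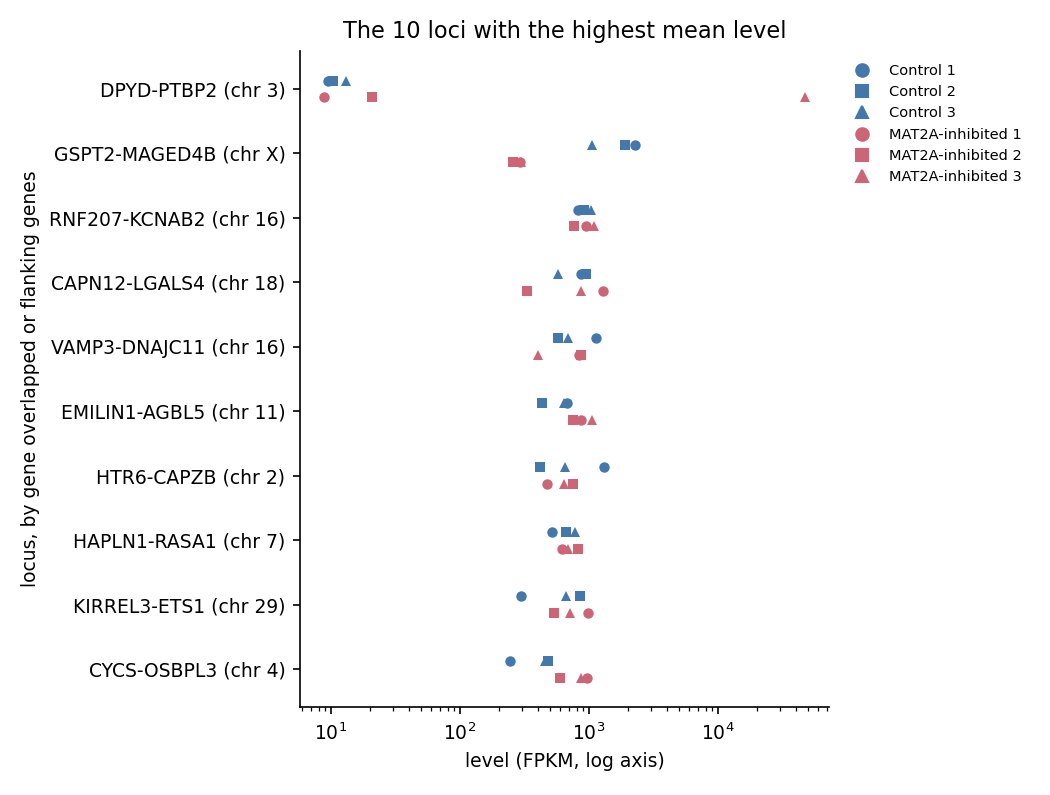
Level of the 10 shared loci with the highest mean, by library (x axis, FPKM on a log axis), each named by its flanking annotated genes. Control points are blue and MAT2A-inhibited points red; the DPYD to PTBP2 locus is at 8.83 to 20.7 FPKM in 5 libraries and at 47377 FPKM in 1, while the RNF207 to KCNAB2 locus stays between 767 and 1089 FPKM.

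The highest mean rested on 1 entry of 1 library. The locus chr3:46823936-46834403, 5081 bases from PTBP2, a splicing regulator, was at 9.54, 10.4 and 13.0 FPKM in controls, against 8.83, 20.7 and 47377 FPKM in MAT2A-inhibited embryos. The last value came from 1 entry of 4817 bases that the file lists at 70838 FPKM with bounds of 1.04 and 3.98 FPKM, and without that entry the level was 13.2 FPKM. Of the 23982 entries in members, 10, in 10 different loci, exceeded their own upper bound more than 10-fold, and 4378 (18.3%) lay outside their own bounds.

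The other loci among the 10 highest had no entry more than 10-fold above its upper bound, but several of their entries exceeded that bound. At chr29:31593431-31597229 Control 2 was at 856 FPKM with an upper bound of 210 FPKM. At chr16:47992651-48000511 Control 1 was at 822 FPKM with an upper bound of 499 FPKM. The X-linked locus of the 10 is described with the comparison of the groups. At chr16:47992651-48000511, between RNF207 and KCNAB2, controls were at 822, 907 and 1041 FPKM and MAT2A-inhibited embryos at 953, 767 and 1089 FPKM. The groups overlapped, and this was the most even of the 10, with a relative SD of 13.4%. Besides Control 1, the main entries of MAT2A-inhibited 1 and 2, at 953 and 886 FPKM, lay above their upper bounds of 587 and 534 FPKM. This evenness thus rests partly on estimates outside their own bounds. CHD5, a chromatin remodeller, and RPL22, a protein of the large ribosomal subunit, lie between the same flanks in RefSeq. At chr7:88648380-88650660, 630341 bases from RASA1, controls were at 513, 668 and 783 FPKM and MAT2A-inhibited embryos at 612, 826 and 690.0 FPKM, again overlapping. Of the 10 RefSeq genes between its flanks, the protein-coding ones are COX7C, a subunit of cytochrome c oxidase, and EDIL3, an extracellular matrix protein.

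Long loci also stood among the highest, with entries too long and deep for the intron test. The locus chr2:133660195-133698958 of 38763 bases, with 1 entry in each library and 98.0% of its length common to all, was at 1306, 415 and 653 FPKM in controls, against 474, 745 and 639 FPKM in MAT2A-inhibited embryos. MICOS10, a protein of the mitochondrial cristae junction, and NBL1, a BMP antagonist, lie between its flanks HTR6 and CAPZB. At chr16:47372188-47453898, 81710 bases long and 99078 bases from DNAJC11, the values were 1136, 569.7 and 693 FPKM and 831, 862 and 404 FPKM, with the transcription activator gene CAMTA1 between its flanks. Neither locus separated the groups.

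Short loci made up the rest. The locus chr18:48768771-48771516, between CAPN12, a calpain protease, and LGALS4, a galectin, was at 863, 946 and 575 FPKM in controls, against 1280, 331 and 861 FPKM in MAT2A-inhibited embryos. The locus chr29:31593431-31597229, 706580 bases from KIRREL3 and 760552 bases from ETS1, was at 295, 856 and 663 FPKM and at 974, 535 and 711 FPKM. Both sets of values overlapped between groups. The 331 FPKM is the weighted mean of 2 entries of MAT2A-inhibited 2 at the chromosome 18 locus, one at 634 FPKM and one at 17.4 FPKM.

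At 2 of the 10 highest loci the groups did not overlap with MAT2A-inhibited embryos above controls, as they did not at 8.38% of all tested features. The locus chr4:71196243-71205371, 7134 bases from CYCS, which encodes cytochrome c, was at 245, 479 and 458 FPKM in controls, against 972, 594 and 870.3 FPKM in MAT2A-inhibited embryos, a log2 difference of 1.07 ± 0.31 (SE) with an adjusted p of 0.743 by limma. The entries of Control 1 and MAT2A-inhibited 2 spanned 9128 and 9081 bases, those of the other libraries 3026 to 3233 bases. The locus chr11:72552987-72555801, between EMILIN1, an elastic-fibre glycoprotein, and AGBL5, a tubulin deglutamylase, with no gene between them in RefSeq, was at 678, 431 and 644 FPKM and at 868, 749 and 1059 FPKM. Its log2 difference was 0.62 ± 0.23 (SE) with an adjusted p of 0.765. Here the value of MAT2A-inhibited 3 lay above its own bounds of 492 and 516 FPKM, which are below the levels of Control 1 and Control 3.

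The most even loci reached 6 embryos with nearly 1 value. At chr19:41178401-41182487, 508 bases from WIPF2 and 3487 bases from CDC6, the replication licensing factor, controls were at 5.80, 5.78 and 5.78 FPKM and MAT2A-inhibited embryos at 6.45, 5.73 and 5.76 FPKM, a relative SD of 4.74%. The locus chr12:16082257-16097115, whose flanks SIAH3 and CPB2 enclose ZC3H13, a component of the RNA methylation complex, had a relative SD of 4.96% around 8.78 FPKM. The locus chr11:80998408-81073875 of 75467 bases lay 263 bases from GEN1, a Holliday junction resolvase, and was at 14.1, 16.1 and 15.5 FPKM in controls, against 16.0, 14.3 and 15.0 FPKM in MAT2A-inhibited embryos. SMC6, a subunit of the SMC5/6 complex, lies between its flanks, and 98.6% of the locus was common to all 6 libraries. The locus chr22:52639334-52641847 lay within the entries of CSPG5 and SHISA5 in all 6 libraries at 31.8 to 39.7 FPKM, and chr24:51115767-51135649, 69355 bases from SMAD4, the shared SMAD of TGF-beta signalling, was at 8.26 to 10.5 FPKM.

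At the most uneven loci 1 embryo carried almost all the signal. After the PTBP2 neighbour, these were chr27:4950326-4972937 within LOC789175, at 317 FPKM in Control 3 and at 3.66 to 20.5 FPKM elsewhere, and chr1:17339828-17358820, at 95.1 FPKM in MAT2A-inhibited 1 and at 1.65 to 5.26 FPKM elsewhere. The locus chr15:3699004-3700668, 204834 bases from CASP4, an inflammatory caspase, was at 73.9 FPKM in Control 2 and at 1.07 to 4.66 FPKM elsewhere. The locus chr6:49072256-49147108 was at 107 FPKM in MAT2A-inhibited 2 and at 1.59 to 7.35 FPKM elsewhere. In the chromosome 6 locus no base was common to all 6 libraries.

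The longest members were mostly chains of many overlapping entries. The X-linked locus of 725182 bases was the longest and the exception, with 7 entries. Next came chr14:66816648-67460268 (643620 bases, 45 entries, 2.25 to 6.48 FPKM), which takes in MIR599 and MIR875, and chr19:59592020-60193873 (601853 bases, 18 entries, 2.44 to 7.53 FPKM), whose flanks SLC39A11 and KCNJ2 enclose SOX9, a transcription factor. The locus chr11:60892088-61472675 (580587 bases, 65 entries) overlapped TMEM17 and was at 7.08 to 14.8 FPKM, and chr16:57110143-57682374 (572231 bases, 18 entries) overlapped GPR52 and was at 1.54 to 4.74 FPKM. The parts common to all 6 libraries ranged from 14.2% to 46.3% of these loci.

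The loci farthest from any annotated entry lay in gene-poor intervals of chromosomes 12 and 6. The locus chr12:61534332-61546692 was 3999720 bases from its nearest annotated entry, MIR1256, and was at 1.37 to 2.63 FPKM. Its flanks enclose SLITRK1, SLITRK5 and SLITRK6, neuronal transmembrane proteins. The loci chr12:8255347-8434352 between PCDH17 and PCDH8, chr12:75250410-75251927 between MIR3141 and CLDN10, chr6:33522153-33524000 between ATOH1 and CCSER1, and chr6:57067423-57129718 between PCDH7 and C6H4orf19 had mean levels of 4.75, 13.6, 4.24 and 3.83 FPKM. The CLDN10 neighbour was the least even of them, at 22.9, 4.59 and 1.46 FPKM in controls, against 18.0, 15.0 and 19.4 FPKM in MAT2A-inhibited embryos, overlapping between groups.

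The comparison of MAT2A-inhibited with Control embryos asked whether FIDAS-5 from day 3 to day 6 went with other levels of the unnamed RNA. Levels were compared with limma on log2(FPKM + 1), in 1 fit with 7319 annotated genes and Benjamini-Hochberg adjustment over all 9801 features. No shared locus passed: 0 of 2482 (0%) had an adjusted p under 0.05, with 0.060 as the lowest, against 2 of the 7319 annotated genes (0.0273%) and 0.0204% of all features. At an unadjusted p under 0.05 there were 156 loci (6.29%) beside 473 annotated genes (6.46%) and 6.42% of all features. Of the 156, 104 loci were higher in MAT2A-inhibited embryos (4.19%), beside 3.57% of annotated genes and 3.72% of all features. The other 52 were lower (2.1%), beside 2.9% of annotated genes and 2.69% of all features.

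The 3 values of each group did not overlap at 307 loci (12.4%), beside 984 annotated genes (13.4%) and 13.2% of all features. In 216 of these loci the MAT2A-inhibited embryos were above the controls (8.7%), beside 8.27% of annotated genes and 8.38% of all features. In 91 they were below (3.67%), beside 5.18% of annotated genes and 4.8% of all features. The median log2 difference was 0.10 over the shared loci, with 58.3% above 0, and 0.04 over the annotated genes, with 54.2% above 0. These shares lie near the background, and the split of the unadjusted counts moved with the scaling: 84 higher and 74 lower after quantile normalization, 90 and 64 with median-of-ratios scaling, and 86 and 79 with levels spread over the merged length. The median standard error was 0.38 on the log2 scale for loci and 0.34 for genes.

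**Figure D3:**
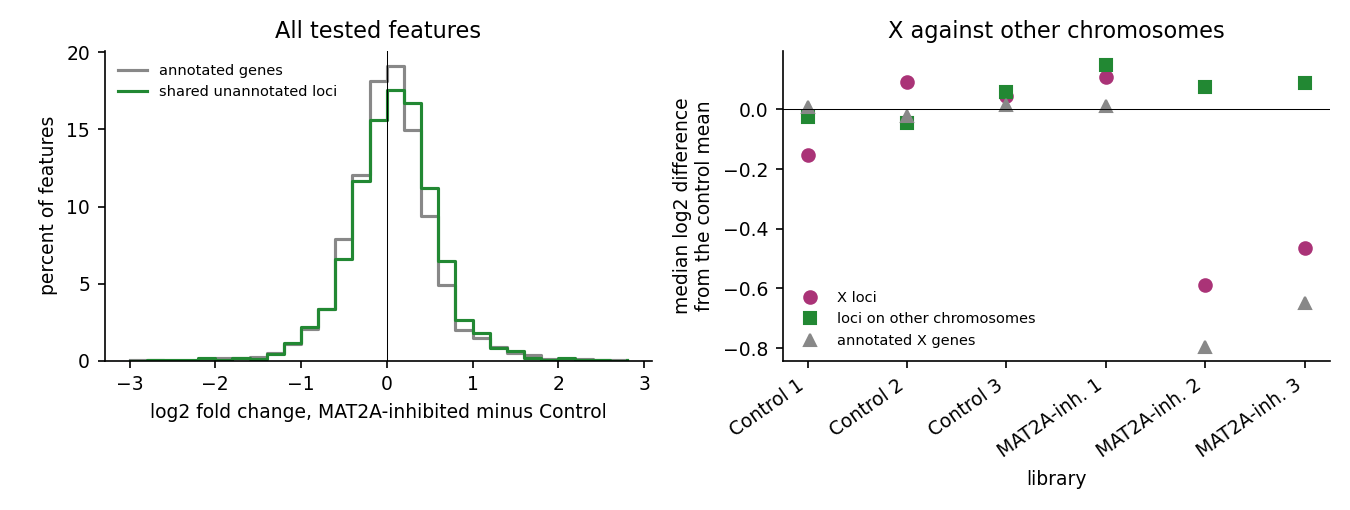
Left, log2 difference (MAT2A-inhibited minus Control, x axis) of the 2482 shared loci in green and the 7319 annotated genes in grey, as percent of features, 2 curves that largely coincide. Right, the median log2 difference of each library from the control mean, where X-linked loci and annotated X genes are low in MAT2A-inhibited embryos 2 and 3 and loci on other chromosomes are not.

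The median difference varied little with the kind of locus. It was 0.14 for the 864 members without an entry of 5000 bases, 63.5% of them above 0, and 0.03 for the 954 with such an entry in every library, 51.7% above 0. Groups did not overlap at 14.8% and 10.1% of these classes, beside the 13.2% of all features. By position the median ran from 0.04 beyond 50000 bases from an annotated entry to 0.13 between 5000 and 50000 bases.

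X-linked loci stood lower in part of the treated group. Relative to the control mean, the median of the 102 X loci was at -0.15, 0.09 and 0.05 on the log2 scale in controls and at 0.11, -0.59 and -0.46 in MAT2A-inhibited embryos 1, 2 and 3. On the other chromosomes the 2380 loci were at 0.15, 0.08 and 0.09 in the same MAT2A-inhibited embryos, and the 249 annotated X genes were at 0.01, -0.80 and -0.65. The low libraries were the 2 with transcripts of DDX3Y, EIF1AY and OFD1Y, and MAT2A-inhibited 1, where these were listed at 0, was not low. Of the 102 X loci 72 (70.6%) were below 0 in the comparison, with a median of -0.31, against 40.4% of the other loci with a median of 0.12. Groups did not overlap at 10 X loci (9.80%) beside 13.2% of all features.

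**Figure D4:**
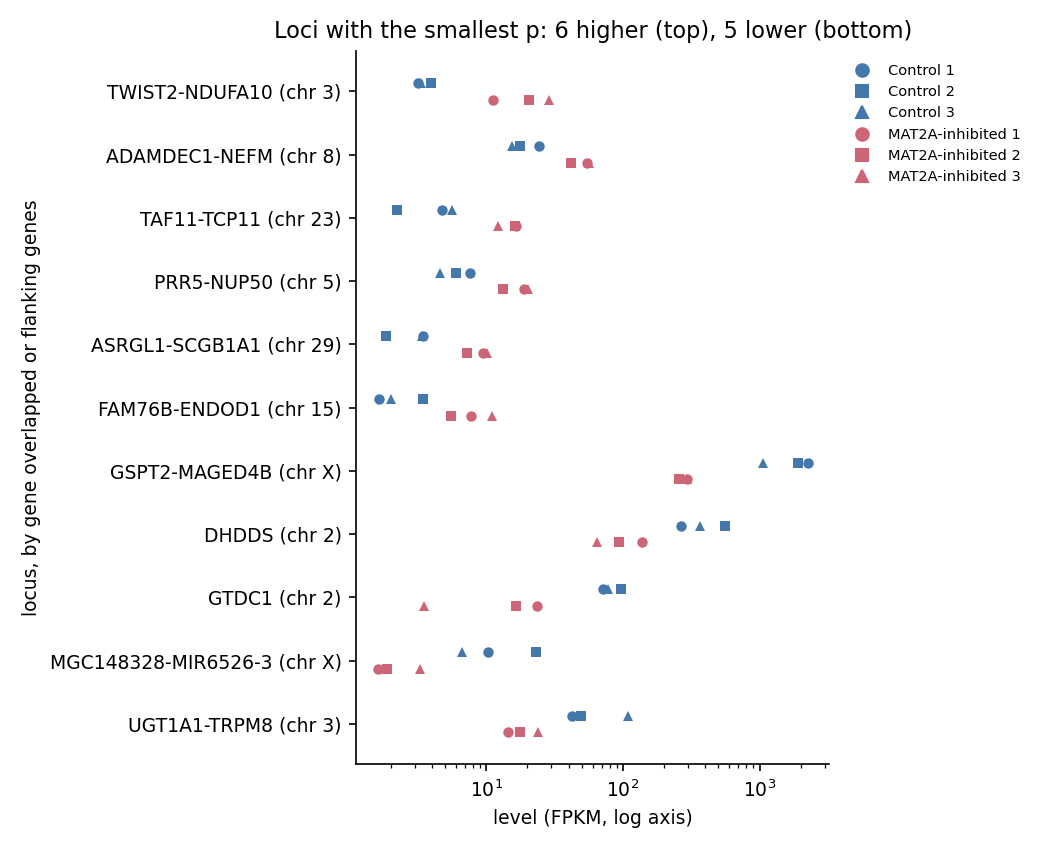
Level by library (x axis, FPKM on a log axis) of 11 of the 12 shared loci with the smallest p in each direction among those whose groups do not overlap, named by the gene they overlap or by their flanking genes. In the 6 upper loci the red MAT2A-inhibited points lie above the blue controls and in the 5 lower ones below; none of them passed the adjusted test, and the lowest adjusted p was 0.060.

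Of the 12 loci with the smallest p, 6 in each direction, 11 are described as extremes of the comparison, since none passed. Above the controls, chr3:118935844-118939028 was at 3.16, 3.95 and 3.31 FPKM in controls, against 11.3, 20.4 and 28.7 FPKM in MAT2A-inhibited embryos. Its log2 difference was 2.15 ± 0.37 (SE) with an adjusted p of 0.324. It lay 245317 bases from TWIST2, a basic helix-loop-helix transcription factor, and its flanks enclose HDAC4, a histone deacetylase. Each library had 1 entry there, of 2235 to 3179 bases, and the control entries, the testable ones, gave no whole number of fragments.

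The locus chr8:73085150-73088955 had the most regular limits of the loci described. Its entries were 3802 to 3805 bases long in all 6 libraries, so that 99.9% of the locus was common to all. Controls were at 24.1, 17.7 and 15.4 FPKM and MAT2A-inhibited embryos at 54.4, 41.6 and 56.3 FPKM, and no control reached the lowest MAT2A-inhibited value. The log2 difference was 1.38 ± 0.27 (SE) with an adjusted p of 0.497. The locus lay 58888 bases from NEFM, a neurofilament subunit, with ADAM7, a gene of the ADAM metalloprotease family, between its flanks.

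The other 4 loci of this direction had log2 differences of 1.37 to 1.67 and adjusted p-values of 0.611 to 0.743. At chr23:9004249-9006806, 13375 bases from TCP11, a testis protein gene, controls were at 4.78, 2.21 and 5.57 FPKM and MAT2A-inhibited embryos at 16.4, 16.1 and 12.2 FPKM. At chr5:116057893-116109965, 9184 bases from PRR5, a subunit of mTOR complex 2, the values were 7.55, 6.03 and 4.55 FPKM and 18.9, 13.2 and 20.2 FPKM. PRR5 itself was at 13.9, 6.58 and 3.99 FPKM and 5.94, 7.64 and 7.05 FPKM, overlapping between groups.

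At chr29:41477131-41478961, 2440 bases from ASRGL1, an asparaginase, controls were at 3.42, 1.86 and 3.39 FPKM and MAT2A-inhibited embryos at 9.50, 7.19 and 10.1 FPKM. Its entries spanned 1685 to 1823 bases in controls and 1133 to 1490 bases in MAT2A-inhibited embryos. The log2 difference of 1.37 was 0.92 with FPKM times span over the merged length. MAT2A-inhibited 1 lay above its own bounds of 3.47 and 6.38 FPKM. At chr15:14837747-14864729, 57902 bases from FAM76B, the values were 1.64, 3.45 and 2.01 FPKM and 7.79, 5.53 and 10.9 FPKM. The flanks of this locus enclose SESN3, a stress-inducible sestrin, and only 4.68% of it was common to all 6 libraries. ASRGL1 and FAM76B did not pass the test either, with adjusted p-values of 0.870 and 0.769.

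Below the controls, the X-linked locus chrX:94609486-95334668 had the smallest p of all shared loci. It lay 228791 bases from GSPT2, a translation termination factor, and 211497 bases from MAGED4B, with MAGED1, a gene of the melanoma antigen family, and LOC615663 between them in RefSeq. Controls were at 2252, 1896 and 1052 FPKM and MAT2A-inhibited embryos at 293, 259 and 296 FPKM, with means of 1734 ± 616 and 283 ± 20.1 FPKM (SD, n = 3 each). The log2 difference was -2.54 ± 0.28 (SE) with an adjusted p of 0.060, and no value of one group reached the other. MAT2A-inhibited 1, at 293 FPKM, was the library of that group with DDX3Y, EIF1AY and OFD1Y listed at 0. Without the other 2 libraries of the group the log2 difference was -2.49, with 1 treated library left. Transcripts of these 3 Y-linked genes were found in no control, and their part in the difference at this locus was not tested.

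The entries of this locus also differed in extent between the groups. All 3 control entries spanned 284122 to 284197 bases from nearly the same start, and the long entries of the MAT2A-inhibited embryos ran on to 665835, 725164 and 725182 bases. MAT2A-inhibited 3 also had an entry of 225605 bases at 22.7 FPKM, which lowers its weighted level from 381 to 296 FPKM. FPKM divides by a transcript length that depends on the assembled model. With FPKM multiplied by span and spread over the merged length, the log2 difference was -1.11 (adjusted p of 0.722). Without Control 3 it was -2.87 with an adjusted p of 0.012, the 1 setting in which this locus passed. The deposited upper bounds reached 752752 FPKM for an estimate of 1052 FPKM. The part of the assembled extent in the difference was not tested.

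**Figure D5:**
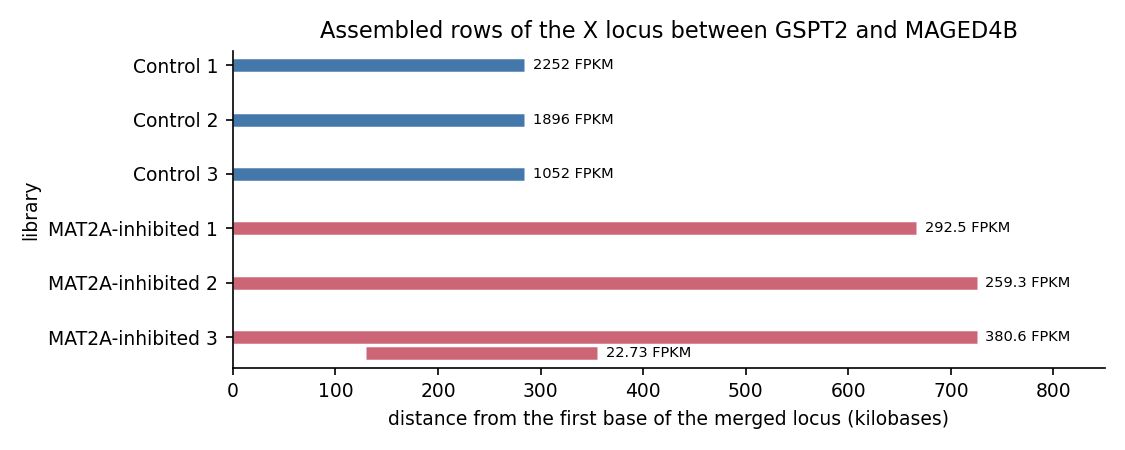
Assembled entries of the X-linked locus between GSPT2 and MAGED4B by library (x axis, distance in kilobases from the first base of the merged locus), with the level of each entry in FPKM. The control entries are 284122 to 284197 bases long and the long entries of the MAT2A-inhibited embryos 665835 to 725182 bases.

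The locus chr2:52473512-52487241 overlapped entries of GTDC1, a glycosyltransferase-like gene, in 2 libraries. Controls were at 71.1, 96.3 and 77.7 FPKM and MAT2A-inhibited embryos at 23.6, 16.6 and 3.53 FPKM, a log2 difference of -2.71 ± 0.59 (SE) with an adjusted p of 0.633. GTDC1 was at 6.39, 9.57 and 5.19 FPKM in controls, against 5.09, 75.0 and 41.8 FPKM in MAT2A-inhibited embryos, overlapping between groups (adjusted p of 0.774 by limma). In MAT2A-inhibited 2 and 3 the GTDC1 entry extended to 425686 and 420786 bases and reached into the locus, and in the other 4 libraries no GTDC1 entry overlapped it. The unnamed entries left in those 2 libraries spanned 1137 and 3015 bases, against 8008 to 13216 bases for the main entry in the other 4.

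The locus chr2:127270011-127271684 lay within the entries of DHDDS, a subunit of the enzyme that makes dolichol, in all 6 libraries. Controls were at 265, 563 and 368 FPKM and MAT2A-inhibited embryos at 138, 93.4 and 64.1 FPKM, without overlap, and each library had a single entry of 1126 to 1646 bases. The log2 difference was -2.01 ± 0.36 (SE) with an adjusted p of 0.367. DHDDS itself was at 13.3 FPKM in Control 1, 11.7 FPKM in Control 3, 12.2 FPKM in MAT2A-inhibited 1 and 10.8 FPKM in MAT2A-inhibited 3, and was listed at 0 in Control 2 and MAT2A-inhibited 2. The neighbouring genes HMGN2, a nucleosome-binding protein, and LIN28A, an RNA-binding protein of pluripotent cells, had adjusted p-values of 0.799 and 0.818.

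The last 2 loci of this direction had log2 differences of -2.01 and -1.70 and adjusted p-values of 0.650 and 0.655. At chrX:27724631-27733181, 775162 bases from MIR6526-3, controls were at 10.3, 23.3 and 6.68 FPKM and MAT2A-inhibited embryos at 1.61, 1.89 and 3.26 FPKM. At chr3:114034834-114135071, 3453 bases from UGT1A1 and UGT1A6, enzymes that attach glucuronic acid, controls were at 42.5, 49.7 and 109 FPKM and MAT2A-inhibited embryos at 14.4, 17.7 and 23.7 FPKM. This last locus held 23 entries over 100237 bases, with 3.10% of the length common to all libraries.

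As the annotated counterpart, 6 of 21 listed long non-coding RNAs had an entry with their symbol. SNHG3, a snoRNA host gene, was at 164, 168 and 91.0 FPKM in controls, against 183, 177 and 147 FPKM in MAT2A-inhibited embryos. TUG1 was at 16.5 to 19.3 FPKM and at 8.68 to 17.0 FPKM, DANCR at 2.08 to 3.77 FPKM and at 2.34 to 4.68 FPKM, and H19, an imprinted RNA, was listed at 0 in all 6. The values of these RNAs overlapped between the groups.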

How the data were processed

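PolyA RNA of 6 single bovine morulae was sequenced after SMART-Seq amplification, per the labels' protocols. TopHat2 2.0.14, Cufflinks 2.2.1 and the build bosTau8 are named in the submitters' processing notes, and the sources used here give neither settings nor annotation. For each library the authors deposited a Cufflinks table whose values are FPKM, each with a lower and an upper bound, per the file headers. Each library was assembled on its own, so the limits of an unnamed entry differ between libraries, and FPKM depends on those limits. No scaling between libraries is recorded.

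Entries without a symbol, with status OK, a span (end minus start) of at least 1000 bases and at least 1 FPKM were merged by 1 or more shared bases. The level of a locus in a library is the mean FPKM of its entries weighted by span. On the log2(FPKM + 1) scale, limma 3.58.1 (R 4.3.3) was run two-sided without a block and with its trend option, in 1 fit over the 2482 loci and the 7319 annotated genes that reach 1 FPKM in 3 libraries. Adjusted p-values are Benjamini-Hochberg over all 9801, with a threshold of 0.05. All 2482 members entered the fit, since the rule already demands the minimum. The test was checked on simulated data. Entry numbers were compared with an exact permutation test (scipy 1.17.1).

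Depth was the value at which 99.7% to 99.9% of the upper bounds of unnamed entries of 100 to 300 bases came out as whole fragments (tolerance 0.05), against 39.8% to 42.8% at a depth divided by 2. No libraries shared values beyond chance, so none was counted as a duplicate. Of 13896 annotated symbols, 13725 matched RefSeq of ARS-UCD2.0, used only for gene names and neighbours. Coordinates are as the files give them, on bosTau8, where a start may count from 0. No genome sequence was used here.

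Named loci are the 10 highest, the 5 longest, 6 per direction with the smallest p among loci whose groups do not overlap, the 5 farthest from annotation, the 5 most even (mean of at least 5 FPKM) and the 5 most uneven, and 3 on each side of each threshold. Some loci that this rule selects are not reported here. The other lists were markers of pluripotent, trophectoderm, cumulus, sperm, blood and Y-linked transcripts and 21 long non-coding RNAs. Trophectoderm markers summed to 188 to 1107 FPKM in controls and 242 to 565 FPKM in MAT2A-inhibited embryos, sperm markers to 2.53 to 4.79 and 5.13 to 11.5 FPKM, and blood markers to 63.1 to 132 and 81.9 to 110 FPKM. The members and lists were chosen with earlier results of these data known. Alternatives covered the level of a locus, pseudocount, filters, scaling, the replicate block and each library left out.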

Additional observations from a re-analysis of the deposited data

How the results depend on the processing

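The absence of calls among shared loci held in 22 of 24 alternatives, with lowest adjusted p-values by limma from 0.0579 to 0.416. The exceptions were 1 locus with FPKM times span over the merged length (chr19:20729586-20786907, adjusted p of 0.0357) and 1 locus without Control replicate 3 (the X-linked locus), so leaving out each library gave 0 to 1 calls. Calls among annotated genes, 2 as reported, ranged from 9 without Control 3 to 0 with genes at 1 FPKM in all 6 (218 higher and 166 lower at an unadjusted p under 0.05). The difference in qualifying entries was -42 with a minimum length of 2000 bases and ranged from -466 to 1203 when 1 library was left out. The reversal without MAT2A-inhibited replicate 1 leaves out the library with the most entries. The shared loci numbered 1470 at a minimum length of 2000 bases and 1836 at a minimum of 2 FPKM. Their median length was 2494 bases for the part covered by all 6, 8.30% lay wholly within an annotated entry, and the median level was 7.48 FPKM for the highest entry and 4.86 FPKM over the merged length. The direction of each of the 12 loci with the smallest p held in every alternative that kept the locus. These loci were selected for groups that do not overlap. Leaving out a library could therefore not reverse a direction, and the result adds no support.

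With the replicate number as a block, 0 loci passed (110 higher and 69 lower at an unadjusted p under 0.05), the lowest adjusted p was 0.209, and 1 annotated gene passed in place of 2. The deviations of same-numbered libraries had correlations of 0.04, 0.09 and 0.18, and those of differently numbered libraries ran from -0.196 to 0.107. So few values cannot decide whether the numbers stand for a pairing. The midpoint of the bounds, the 100-base stretch and leaving out both libraries with DDX3Y transcripts were chosen after seeing the data. Depth per entry was not recovered, so errors are the spread between 3 embryos.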

Other observations

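Loci hit by 3 libraries of one group and none of the other were few and rarely empty in the other group. Of the 1519 loci hit by 3 libraries, 62 had qualifying entries in the controls only and 87 in the MAT2A-inhibited embryos only. In 3 and 2 of these, respectively, the other group had no entry of any kind, annotated or short, over the locus. Whether 62 and 87 exceed what sets of 3 libraries drawn without regard to group would give was not tested. Loci hit by at least 3 libraries were also added at 0 where a library had no qualifying entry, in a fit of 13505 features. Of the added loci, 6 passed the adjusted test of limma, 4 higher and 2 lower in MAT2A-inhibited embryos. Beside them, 2 of the 7319 annotated genes passed. A 0 here can stand for an entry that was too short, too low or listed under a gene name. The minimum itself thus makes part of the contrast, and these calls add no support for a difference between the groups.

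The entries of the libraries over 5 of these 6 loci are given here. At chr1:114281100-114283640, called higher, the 3 MAT2A-inhibited libraries had an unnamed entry of 1783 to 2540 bases at 12.3, 12.4 and 15.9 FPKM. In the 3 controls the same bases lay almost wholly inside the entry of DHX36, a helicase that unwinds G-quadruplexes, at 23.4, 28.2 and 26.2 FPKM. At chr5:95796531-95800585, called higher, the unnamed entries were at 11.0, 20.3 and 16.0 FPKM, and in controls the bases lay almost wholly inside the entry of ATF7IP, a cofactor of histone H3K9 methylation, at 18.0, 27.8 and 17.7 FPKM.

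At chr24:21337296-21340371, called lower, controls had unnamed entries at 18.7, 16.7 and 30.1 FPKM next to the zinc transporter gene SLC39A6. In MAT2A-inhibited embryos the SLC39A6 entry overlapped the locus at 24.0, 6.10 and 12.7 FPKM, and the unnamed entries left over were 574 and 742 bases long. At chr12:79038305-79042891, called lower, at IPO5, an importin, the unnamed entries of MAT2A-inhibited embryos were 752 to 769 bases long at 7.26 to 15.2 FPKM, short of the minimum length.

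At chr5:17961719-17998830, called higher, the controls had entries of 325 to 692 bases at 0.65 to 2.41 FPKM in 2 libraries and none in Control 3, and the longest entries of the MAT2A-inhibited libraries were 24031 to 37108 bases at 7.63 to 10.2 FPKM.

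The locus chr19:20729586-20786907, 355 bases from TRAF4, a signalling adaptor, and 5287 bases from ERAL1, a mitochondrial ribosome assembly factor, is a like case among the shared loci. Control levels were 10.2, 11.4 and 18.0 FPKM and MAT2A-inhibited levels 8.01, 6.88 and 4.96 FPKM, with an adjusted p of 0.765. The entries added up to 59611 to 60577 bases in controls and to 3825 to 4394 bases in MAT2A-inhibited embryos. The control sums exceed the merged length of 57321 bases, since overlapping entries are each counted. The locus passed only with FPKM times span over the merged length, and the part of the span in that call was not tested. FAM222B lies between its flanks in RefSeq.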
